A study of Arabidopsis thaliana with 6 samples.

Results

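Of 53 *Arabidopsis thaliana* genes for actins, profilins, actin depolymerizing factors (ADFs), LIM proteins, fimbrins, villins, formins and the cyclase associated protein CAP1, 15 could be followed in *tink/ibr5-6* and wild-type inflorescences. Members were listed by their locus, with earlier results of these data known. Those followed are the genes that the annotation of the array names alone for a probe set. Each of the 15 had 1 such probe set, out of 13333 genes named in this way on the array. The other 38 were not analysed here, among them all 5 profilins, all 11 ADFs, all 5 villins, CAP1, 7 of 9 actins, 2 of 4 fimbrins, 6 of 12 formins and *PLIM2c*. The 15 were *ACT11* and *ACT12*, the LIM genes *PLIM2a*, *PLIM2b*, *WLIM1*, *WLIM2a* and *WLIM2b*, the fimbrins AT5G48460 and AT5G55400, and the formins AT2G43800, AT1G59910, AT5G48360, AT3G07540, AT3G05470 and AT5G58160.

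Actin filaments are the tracks on which plant cells move vesicles and organelles, and in the tip-growing pollen tube they carry new wall material to the apex. Formins start filaments, whereas LIM proteins and fimbrins tie filaments into bundles. Flowering plants have separate isoforms for these tasks: some genes of a family act in pollen and others in the vegetative body of the plant. *ACT11* and *ACT12* belong to the reproductive actins, *ACT11* being also active in ovules and embryos. *PLIM2a* and *PLIM2b* encode the LIM proteins of pollen, and the *WLIM* genes encode those of most other tissues.

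RNA came from inflorescences that bore young buds, and each plant gave 1 Affymetrix ATH1 array. The 3 *tink/ibr5-6* plants were homozygous for an EMS-induced mutation in the active site of the MAPK phosphatase IBR5. The mutation had been found in a *klu-2* population and then freed of *klu-2* by repeated backcrosses to Landsberg *erecta* (L*er*), so that the genotype stands for 1 mutant line. The 3 wild-type plants were L*er*, the accession that both genotypes share. *IBR5* itself was not analysed here, for the same reason as the 38 genes. Values are on a log2 scale after gcrma, a method that removes the background estimated from the probe sequence, and the lowest value it gave was 2.10. They can be compared between arrays for 1 gene, but not between genes.

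Array medians were 6.18 to 6.20, and the correlation of 2 arrays over all probe sets, which are not independent replicates, was 0.996 to 0.998 within a genotype and 0.972 to 0.985 between genotypes. The floral tissue was borne out by its markers: AT5G07230 (*A9*) of the tapetum, the nurse tissue of young pollen, averaged 12.90 ± 0.14 in the mutant and 12.55 ± 0.06 in L*er* (n = 3 each, ± SD), and the root hair expansin genes *EXPA7* and *EXPA18* lay at or within 0.02 of the lowest value on every array. A gene was called where its adjusted p was under 0.05 (limma, Benjamini-Hochberg over 22746 probe sets) and its absolute log2 fold change was above 1. By this rule 4.25% of all probe sets were called, 2.71% lower and 1.53% higher in *tink/ibr5-6*, and 2.46% of the 13333 named genes were called lower. No source states that the plants were raised side by side, and the p-values cover only the spread between these individuals. With 3 arrays against 3, an exact permutation test cannot give a p under 0.1.

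Most of the measured pollen isoforms (4 of 16 listed) were called lower in *tink/ibr5-6* inflorescences. Of the measured vegetative isoforms (3 of 26 listed) none was called in either direction. However, 2 of these 3 had higher values in the mutant at an adjusted p under 0.05 (limma), as had 9.6% of all probe sets, and missed only the limit on the fold change. Of the 15 genes, 3 were called lower (against 2.71% of all probe sets) and none higher, and all 3 were among the 4 pollen isoforms (*PLIM2a*, *PLIM2b* and *ACT12*). For the pollen isoforms the median log2 fold change was -1.97, and they ranged from -5.41 to -0.48. The 3 vegetative isoforms, all of them LIM genes, had a median of 0.47, and the 8 genes put in neither class one of 0.14, where the median of all probe sets tested was 0.00. The plot of the values by array shows these groups side by side.

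**Figure D1:**
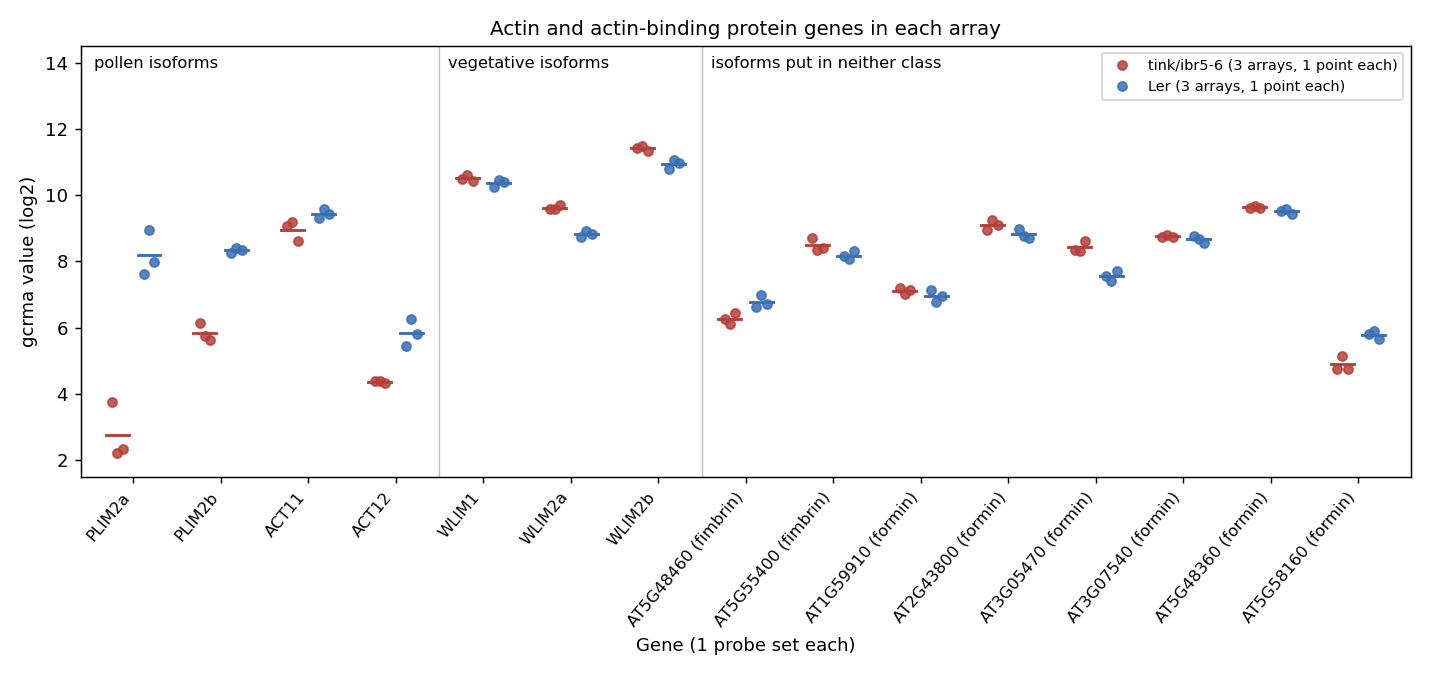
Values of the 15 genes in each array (y axis, gcrma value on a log2 scale; x axis, genes ordered by class), with 1 point per array, *tink/ibr5-6* left of L*er*, and a line at each mean. The 3 *tink/ibr5-6* arrays lie under the 3 L*er* arrays for all 4 pollen isoforms (against 14.4% of all probe sets), with the widest gap for *PLIM2a* (2.77 against 8.18).

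*PLIM2a*, whose product bundles actin in pollen, had log2 values of 3.75, 2.23 and 2.33 in *tink/ibr5-6* replicates 1 to 3, against 7.63, 8.94 and 7.98 in L*er* replicates 1 to 3. The genotypes lay far apart, and mutant replicates 2 and 3 were near the lowest value of the method (2.10), while replicate 1 lay higher. The mean ± SD was 2.77 ± 0.85 in *tink/ibr5-6* and 8.18 ± 0.68 in L*er* (n = 3 each). The log2 fold change was -5.41 (95% confidence interval -7.02 to -3.81, adjusted p = 0.0115 from limma). On the linear scale this is a fitted 42.7-fold lower value, whose size is uncertain because 2 of the mutant arrays lay under a log2 value of 3.

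*PLIM2b*, its close relative, also acts in pollen. It had values of 6.15, 5.76 and 5.62 in *tink/ibr5-6*, against 8.24, 8.41 and 8.34 in L*er*. The signal stayed well above the lowest values in the mutant, and the arrays within each genotype lay close together. The mean ± SD was 5.84 ± 0.27 in *tink/ibr5-6* and 8.33 ± 0.08 in L*er* (n = 3 each). The log2 fold change was -2.49 (95% confidence interval -2.91 to -2.07, adjusted p = 0.0043 from limma), or a 5.61-fold lower value. Of the 3 called genes only *PLIM2b* was also called at an adjusted p under 0.01.

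*ACT12*, an actin gene of pollen and pollen tubes, had values of 4.40, 4.40 and 4.34 in *tink/ibr5-6*, against 5.45, 6.25 and 5.80 in L*er*. The mutant arrays barely differed, and the values of replicates 1 and 2 were equal to every deposited digit, which holds for some pair of *tink/ibr5-6* arrays in 32.8% of all probe sets and in 3.53% of those averaging a log2 value of 4 or more. The log2 fold change of *ACT12* was -1.46 (95% confidence interval -2.05 to -0.86, adjusted p = 0.0218 from limma), or 2.75-fold lower. Whether the signal of *ACT12* in *tink/ibr5-6* lay at the lower limit of its probe set was not tested. It was not called without any 1 of *tink/ibr5-6* replicates 1, 2 and 3 or L*er* replicate 3 (adjusted p = 0.0753 to 0.0805), although the log2 fold change stayed between -1.65 and -1.25 in all 6 fits that leave out 1 array.

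*ACT11* was the 1 pollen isoform that did not pass. It had values of 9.06, 9.19 and 8.60 in *tink/ibr5-6*, against 9.31, 9.57 and 9.42 in L*er*. All mutant arrays lay under all wild-type arrays, but replicates 1 and 2 only by a small margin. The log2 fold change was -0.48 (95% confidence interval -0.98 to 0.01, adjusted p = 0.178 from limma).

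In L*er*, replicate 2 had the highest value and replicate 1 the lowest for all 4 pollen isoforms. Of 7 mature pollen markers that are no actin genes and exceeded a log2 value of 3 on at least 1 array, 6 were highest in L*er* replicate 2 and 5 were lowest in L*er* replicate 1. In *tink/ibr5-6*, where a value shared by 2 arrays was counted for neither, replicate 1 was highest for 2 of 4 pollen isoforms and 4 of 7 markers, and replicate 3 was lowest for 3 of 4 and 4 of 7. These are counts over few genes on shared arrays, given without a test.

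Of 11 mature pollen markers 8 were measured, and 6 were called lower in the mutant (against 2.71% of all probe sets) and none higher. Their mean log2 value ranged from 3.51 to 4.50 over the *tink/ibr5-6* arrays and from 7.35 to 7.99 over the L*er* arrays, and AT2G21480 lay under 3 on every array. The receptor kinase gene *ANX1*, with a log2 fold change of -1.45, did not pass (adjusted p = 0.105 from limma). Its 3 *tink/ibr5-6* arrays lay at the lowest value (2.10) and L*er* replicate 1 at 2.68, so that the size of its change is uncertain. The polygalacturonase gene AT3G07820 had a log2 fold change of -3.98 and the pectinesterase gene AT5G07430 one of -6.21 (adjusted p of 0.0364 and 0.0136 from limma). The 1 measured sperm cell marker of 5, the histone gene *MGH3*, had -2.95 and did not pass (adjusted p = 0.0622 from limma). Whether fewer pollen grains, another mix of bud stages or less RNA per grain lies behind the lower values cannot be told in whole inflorescences. The paper reports more flowers per inflorescence in the mutant, and no gross defect in the form of its anthers or pollen. It also found no significant change in transmission of the mutation through male gametes. The mix of bud stages was not tested, and markers of other floral tissues are given below. The part of the pollen content in the change of the actin genes was not tested.

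Averaged over the 4 pollen isoforms, the deviation from the mean of L*er* was -2.11, -2.55 and -2.72 in *tink/ibr5-6*, against -0.29, 0.35 and -0.06 in L*er*. For the 7 pollen markers the same averages were -3.57, -4.04 and -4.69 in *tink/ibr5-6* and -0.31, 0.43 and -0.12 in L*er*. The vegetative isoforms lay at 0.46, 0.51 and 0.44 in *tink/ibr5-6* and at -0.13, 0.11 and 0.02 in L*er*. The difference of pollen minus vegetative isoforms was therefore -2.57, -3.06 and -3.16 in the *tink/ibr5-6* arrays, and -0.16, 0.24 and -0.08 in the L*er* arrays. It holds no p, since the genes were grouped with results of these arrays known.

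**Figure D2:**
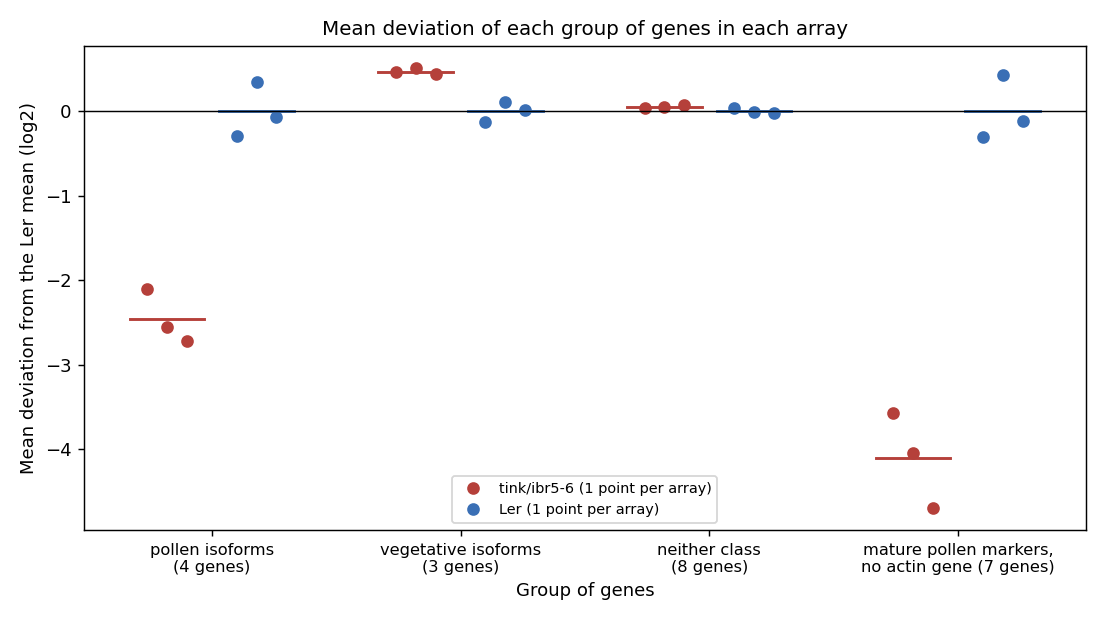
Mean deviation from the L*er* mean (y axis, log2) of 4 groups of genes (x axis), with 1 point per array, *tink/ibr5-6* left of L*er*, and a line at the mean of the 3 arrays. Pollen isoforms lie between -2.72 and -2.11 in *tink/ibr5-6* and the pollen markers between -4.69 and -3.57, while the vegetative isoforms lie between 0.44 and 0.51.

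The LIM family is the 1 family here with measured genes of both classes. *WLIM2a*, an actin-bundling LIM gene of vegetative tissues, had values of 9.59, 9.58 and 9.70 in *tink/ibr5-6*, against 8.74, 8.92 and 8.82 in L*er*. The genotypes did not overlap, and the arrays of each lay within 0.2 of each other. Its log2 fold change of 0.79 (95% confidence interval 0.63 to 0.96, adjusted p = 0.00624 from limma) passed the limit on p but not that on the fold change, so that it was not called. *WLIM2b* likewise had 11.42, 11.48 and 11.32 in *tink/ibr5-6*, against 10.77, 11.05 and 10.97 in L*er*, and its log2 fold change was 0.47 (95% confidence interval 0.23 to 0.72, adjusted p = 0.0360 from limma). *WLIM1*, with 10.49, 10.60 and 10.42 in *tink/ibr5-6* against 10.23, 10.46 and 10.38 in L*er*, overlapped between genotypes and had a log2 fold change of 0.14 (95% confidence interval -0.08 to 0.37, adjusted p = 0.350 from limma). The LIM genes of pollen minus those of vegetative tissues differed from the L*er* mean by -3.77, -4.78 and -4.72 in the *tink/ibr5-6* arrays and by -0.20, 0.31 and -0.12 in the L*er* arrays. The adjusted p of *WLIM2a* stayed under 0.05 in each of the 6 fits that leave out 1 array (0.0183 to 0.0321) and that of *WLIM2b* in none of them (0.0511 to 0.116).

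Neither of the fimbrins, which cross-link filaments into tight bundles, was called. AT5G48460 had values of 6.25, 6.11 and 6.44 in *tink/ibr5-6*, against 6.61, 6.99 and 6.71 in L*er*, and AT5G55400 had 8.72, 8.33 and 8.42 in *tink/ibr5-6*, against 8.16, 8.07 and 8.31 in L*er*. The arrays of the genotypes did not overlap for either gene, one lower and one higher in the mutant, which also holds for 35.7% of all probe sets. Their log2 fold changes were -0.50 (95% confidence interval -0.88 to -0.12) and 0.31 (95% confidence interval -0.03 to 0.66), and neither passed (adjusted p of 0.0923 and 0.205 from limma).

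None of the 6 formins, which nucleate new filaments, was called. The limit on p was passed by 2 of them in opposite directions (against 16.3% of all probe sets). The formin AT3G05470 had values of 8.34, 8.32 and 8.62 in *tink/ibr5-6*, against 7.55, 7.40 and 7.72 in L*er*. The formin AT5G58160 had 4.77, 5.14 and 4.77 in *tink/ibr5-6*, against 5.81, 5.90 and 5.65 in L*er*. In both the genotypes were apart, as in 35.7% of all probe sets. AT3G05470 had the higher and AT5G58160 the lower values in the mutant, where replicates 1 and 3 of AT5G58160 shared a value to every deposited digit. The log2 fold change was 0.87 for AT3G05470 (95% confidence interval 0.53 to 1.21, adjusted p = 0.0203 from limma) and -0.89 for AT5G58160 (95% confidence interval -1.26 to -0.52, adjusted p = 0.0226 from limma). When 1 array was left out, the adjusted p of AT3G05470 was over 0.05 in 4 of 6 fits (0.0618 to 0.0673) and that of AT5G58160 in 5 of 6 (0.0585 to 0.0783). In the other fit, without *tink/ibr5-6* replicate 2, AT5G58160 had -1.01 and was called.

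The other 4 formins differed between genotypes by at most 0.29. AT2G43800 ranged from 8.94 to 9.26 in *tink/ibr5-6* and from 8.71 to 8.98 in L*er* (log2 fold change 0.29, 95% confidence interval -0.03 to 0.61). AT1G59910 ranged from 7.03 to 7.19 in *tink/ibr5-6* and from 6.77 to 7.14 in L*er* (0.15, 95% confidence interval -0.15 to 0.46). AT5G48360 ranged from 9.60 to 9.68 in *tink/ibr5-6* and from 9.43 to 9.59 in L*er* (0.12, 95% confidence interval -0.02 to 0.25). AT3G07540 ranged from 8.73 to 8.78 in *tink/ibr5-6* and from 8.56 to 8.75 in L*er* (0.09, 95% confidence interval -0.06 to 0.24). None of the 4 passed, with adjusted p of 0.205, 0.481, 0.227 and 0.394 from limma, and the upper ends of these intervals lie under the log2 fold change of 1 that a call needs.

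**Figure D3:**
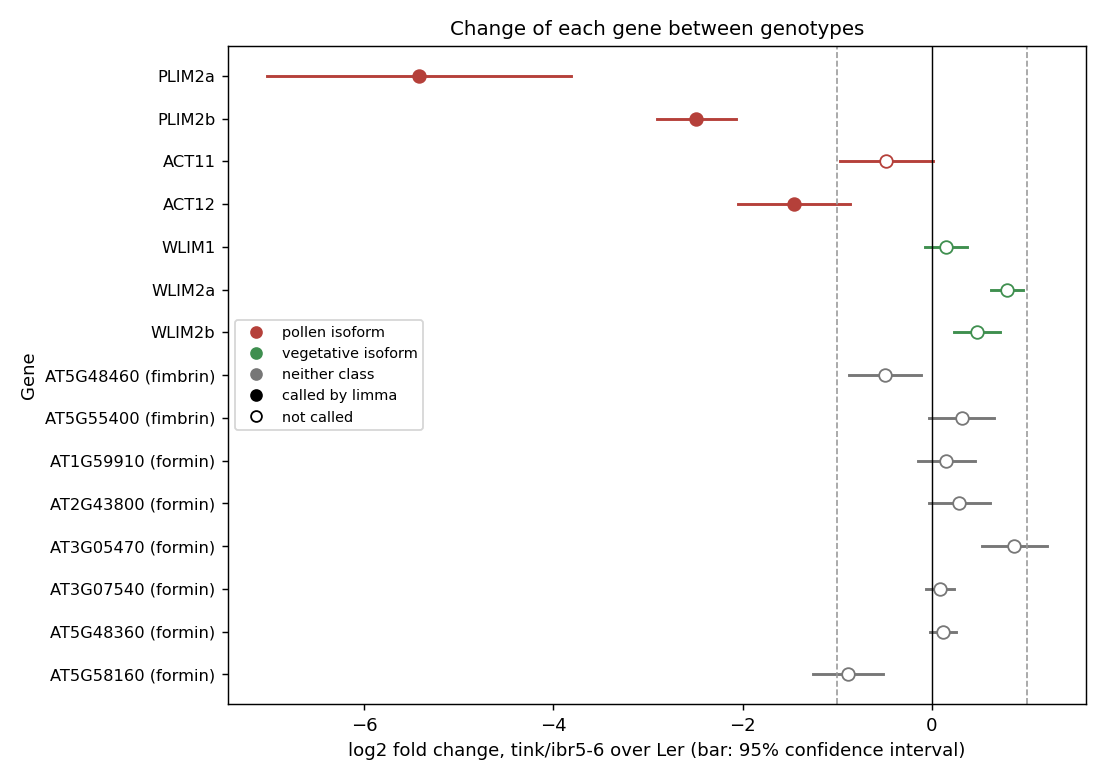
Log2 fold change of *tink/ibr5-6* over L*er* for each of the 15 genes (x axis, with 95% confidence intervals from limma; y axis, genes by class), filled points for called genes and dashed lines at -1 and 1. The 3 filled points are *PLIM2a* at -5.41, *PLIM2b* at -2.49 and *ACT12* at -1.46, and the points of the other genes lie between -0.89 and 0.87.

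Without the limit on the fold change 7 of the 15 genes passed, 4 lower and 3 higher, where 16.3% of all probe sets passed (6.65% lower and 9.6% higher). The genotypes did not overlap for 11 of the 15 genes, 6 lower and 5 higher in *tink/ibr5-6*, against 35.7% of all probe sets (14.4% lower and 21.3% higher). Each of the 11 had an exact permutation p of 0.1 (two-sided), the smallest that 3 arrays against 3 can give.

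A list of 73 other genes of the actin cytoskeleton (myosins, the ARP2/3 and SCAR/WAVE complexes that start branched filaments, further actin-binding proteins, and ROP GTPases with their partners) held 16 measured genes. Among these, 1 was called, as lower (against 2.71% of all probe sets), and 15 were not called. The median log2 fold change was -0.18. The called gene was *XIC*, one of the class XI myosins, motors that carry organelles along actin, and known to act in pollen tubes. It had values of 5.64, 5.49 and 4.70 in *tink/ibr5-6*, against 7.43, 7.32 and 7.08 in L*er*, and a log2 fold change of -1.99 (95% confidence interval -2.78 to -1.20, adjusted p = 0.0205 from limma). *XIE*, a second class XI myosin of pollen tubes, had 7.38, 7.62 and 6.13 in *tink/ibr5-6*, against 9.09, 8.82 and 8.94 in L*er*, and one of -1.90 (95% confidence interval -3.10 to -0.71, adjusted p = 0.0588 from limma). In both genes *tink/ibr5-6* lay under L*er* without overlap, and *tink/ibr5-6* replicate 3 was the lowest array. The genotypes were apart for 7 of the 16 genes, 6 lower and 1 higher in *tink/ibr5-6*, against 35.7% of all probe sets (14.4% lower and 21.3% higher). *XIC* was not called without *tink/ibr5-6* replicate 2 or without any 1 of the L*er* arrays (adjusted p = 0.0642 to 0.0758), and *XIE* was called without *tink/ibr5-6* replicate 3, with -1.45.

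The other named genes of the list were not called. The class XI myosin *XI-I* had a log2 fold change of -0.28, the ARP2/3 subunit *CRK* one of -0.28, and the SCAR/WAVE subunits *PIR121* and *BRK1* had -0.36 and -0.08 (adjusted p of 0.283, 0.198, 0.120 and 0.737 from limma). AT3G18060 had 0.33 and *NET1A*, an actin-binding protein gene, 0.09 (adjusted p of 0.176 and 0.301 from limma). *XIJ* with -0.86 and AT2G01330 with -0.91, both named after their values had been seen, passed the limit on p (adjusted p of 0.00658 and 0.00400 from limma) but not that on the fold change. The myosin *XIH*, the fimbrin AT2G04750 and the formin AT1G42980 lay at 2.10 on every array and the formin AT5G07740 at 4.48, and they are named here for that reason. The 21 ROP GTPases, exchange factors and effectors on the list were not analysed here.

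**Figure D4:**
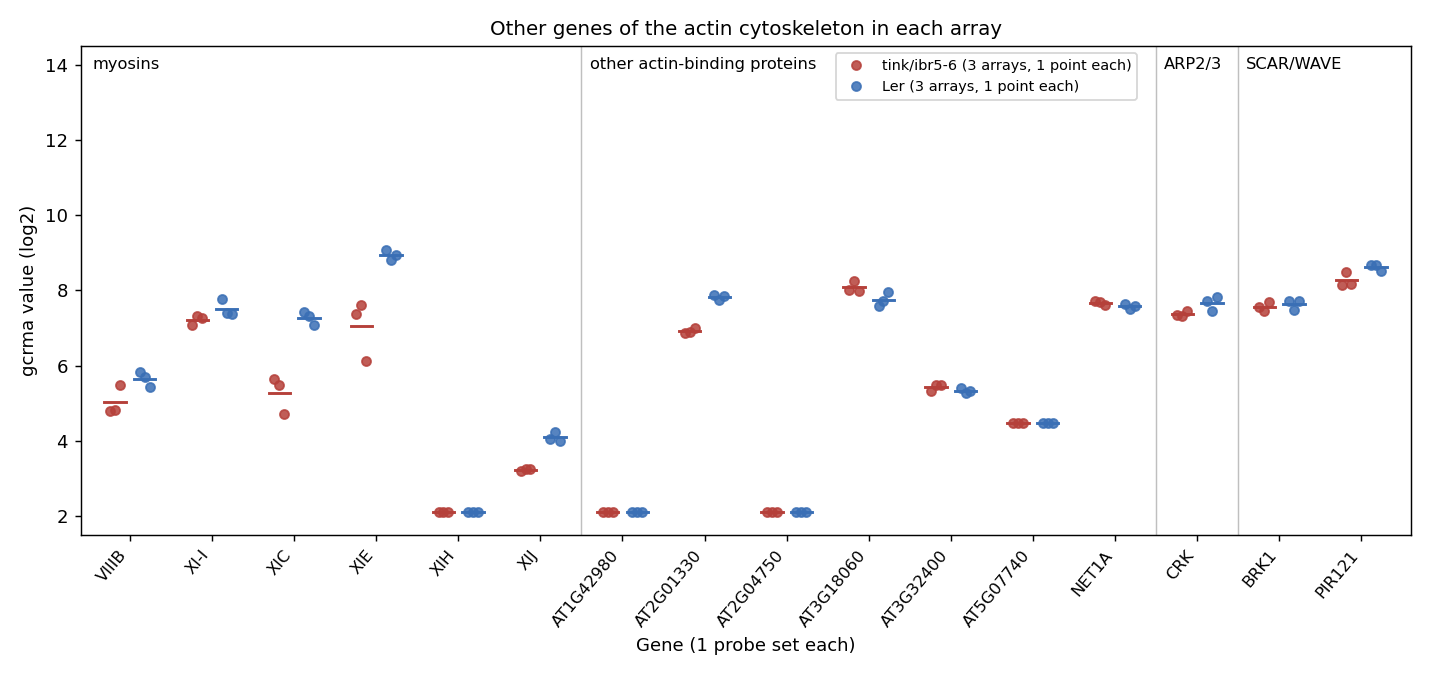
Values of the 16 measured genes of the wider actin cytoskeleton in each array (y axis, gcrma value on a log2 scale; x axis, genes ordered by sub-list), with 1 point per array, *tink/ibr5-6* left of L*er*, and a line at each mean. *XIC* (5.28 against 7.27) and *XIE* (7.04 against 8.95) show the widest gaps, and 4 genes have the same value on all 6 arrays.

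Of the markers of other floral tissues, 1 was called. Of 4 measured markers of the tapetum and young anther none was called (AT5G07230 with 0.35, *EMS1* with 0.26 and *SPL* with -0.03), with a mean log2 value of 9.48 to 9.71 over the *tink/ibr5-6* arrays and of 9.22 to 9.27 over the L*er* arrays. The tapetum gene *AMS*, with 0.89 and arrays of the genotypes apart, passed the limit on p but not that on the fold change (adjusted p = 0.0253 from limma). Of 3 measured markers of the pistil and ovule none was called (*SPT* with 0.47 and *NGA1* with 0.92, which passed the limit on p alone with an adjusted p of 0.0170 from limma), with means of 5.88 to 5.97 over the *tink/ibr5-6* arrays and of 5.37 to 5.59 over the L*er* arrays, and *INO* lay under 3 on every array. Of 3 measured markers of late stamens and petals 1 was called lower (against 2.71% of all probe sets), *ADPG1* with -2.31. The terpene synthase gene AT5G44630 had -0.76 and passed the limit on p alone (adjusted p = 0.0365 from limma). AT3G25810 had -2.12 and did not pass (adjusted p = 0.230 from limma), with 3 *tink/ibr5-6* arrays and 1 L*er* array under 3. All 3 markers were lower without overlap of the genotypes (against 14.4% of all probe sets). Their means were 5.66 to 6.04 in *tink/ibr5-6* and 6.71 to 8.19 in L*er*. The part of these tissues in the higher values of *WLIM2a*, *WLIM2b* and AT3G05470 was not tested.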

How the data were processed

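Affymetrix ATH1 arrays of 3 *tink/ibr5-6* and 3 L*er* inflorescences were normalized by the authors with gcrma (version not given in the sources used here), and the deposited log2 values, 1 per probe set and array, were used as they are. The table holds 22810 probe sets, 64 of them controls that stayed out of the fit. The platform annotation names 1 gene for 13513 of the rest, several for 503 and does not list 8730. Loci were matched through the gene tables of RefSeq, and genes without a symbol there keep their locus. Where a gene has several probe sets, the one with the highest mean was taken.

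The comparison of genotypes used lmFit and eBayes of limma 3.58.1 (R 4.3.3) without a covariate, adjusted over 22746 probe sets, with the thresholds of the methods. The prior for the spread had 0.401 degrees of freedom, so that each spread rests mostly on 6 values, and the number of arrays limits the precision. The code was tested on simulated data.

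The members, their classes (from the known expression of the isoforms) and the lists were chosen with earlier results of these data known. All measured members are named. Of the wider list, called genes and up to 2 others of each sub-list with the highest mean are named, and of the markers up to 2 of each list. AT2G21480, *ANX1*, AT3G25810, *AMS*, *SPL* and *INO* were added after their values were seen. The photosynthesis markers were not analysed here. The alternatives were other normalization, filters, priors, weights, thresholds, probe sets, a narrower pollen class, a replicate block and leaving out each array. Figures were drawn with Python 3.11.15 and matplotlib 3.10.9.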

Additional observations from a re-analysis of the deposited data

How the results depend on the processing

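None of the 27 genes of both lists with a log2 fold change beyond 0.05 turned its direction under any alternative, and *PLIM2b* was called in 16 of 17. Filters, priors, thresholds, the choice of probe sets and the replicate block left these log2 fold changes as they were. Only other normalization, weights and leaving out an array could have turned a direction. The 3 calls, all lower and in pollen isoforms, were 2 to 3 when 1 array was left out (2 to 3 members and 2 to 3 pollen isoforms), and without *tink/ibr5-6* replicate 2 the 3 called members included AT5G58160 in place of *ACT12*. Over the same fits the probe sets called were 518 to 746 (966 with all arrays), the genes of the wider list called 0 to 2, and the medians of pollen and vegetative isoforms -2.09 to -1.85 and 0.40 to 0.54. When only probe sets averaging a log2 value of 6 or more were tested, 632 were called, with 1 member (1 of 2 pollen isoforms, median -1.48) and 2 genes of the wider list, as also for those averaging 4 or more and with arrays centred on their medians (2 each, *XIC* and *XIE*). At an adjusted p under 0.01, 366 probe sets, 1 member, 1 pollen isoform and 0 of the wider list were called. With no limit on the fold change, 3697 probe sets, 7 members, 2 vegetative isoforms and 3 of the wider list passed. The narrower pollen class, without *ACT11* here, had a median of -2.49. Since each gene had 1 probe set, its choice changed no value of a member. With the replicate number as a block, 133 probe sets were called and 0 members, 0 pollen isoforms and 0 genes of the wider list, with adjusted p of 0.0621 for *PLIM2b* and 0.0994 for *PLIM2a*. No source states what equally numbered arrays share. Their deviations correlated with r of -0.30, 0.02 and -0.05, and *tink/ibr5-6* replicate 1 correlated best with L*er* replicate 2. With 3 arrays of each genotype, these correlations cannot decide whether equal numbers mark a batch. Signals near the lowest value limit what can be said of *PLIM2a* in *tink/ibr5-6*.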
